A study of Mus musculus with 6 samples.

Results

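The genes of the NADPH oxidases were followed in corneal keratocytes, the resident cells of the corneal stroma, with and without Ptch1, the receptor that holds Hedgehog signaling off. The group was set by gene symbol and holds 9 of the 17606 genes in the expression table, namely the dual oxidases Duox1 and Duox2, their maturation factors Duoxa1 and Duoxa2, the constitutive oxidase Nox4, the membrane subunit Cyba, and the phagocyte oxidase genes Cybb, Ncf1 and Ncf4. The genes were picked with their change after Ptch1 ablation already known, so their values in that comparison are given as a description and without a test. All 9 genes were in the table and 8 had enough counts to enter the fit, Duoxa2 being the exception.

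RNA was sequenced from 6 samples of keratocytes sorted from the cornea by flow cytometry, 3 from control mice and 3 from Ptch1-ablated mice. The Ptch1-ablated mice carried floxed Ptch1 and Prrx1-CreERT, a knock-in allele whose tamoxifen-dependent Cre recombinase is active in keratocytes and also in corneal endothelial cells. The controls are given only as ctrl or WT and as age-matched, so it was not known whether they carried the Cre allele. Mice of both groups were 10 weeks old, received 3 doses of tamoxifen, and were examined after 1 month. The study's methods count the 3 samples of a group as biological replicates, and the gate used for the sort was not given in the sources used here.

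The libraries held 20258439 to 24788063 estimated counts, and 3 counts corresponded to 0.121 to 0.158 CPM, the count relative to the scaled library size, depending on the library. The targeted gene Ptch1 was counted 172, 104 and 369 times in control libraries and 4348, 5194 and 6230 times after ablation. This total runs over the whole gene and does not check the deletion, since transcripts that lack the floxed exons are counted too. Gli1, a transcription factor induced by Hedgehog signaling, had 1, 20 and 36 counts against 3022, 3042 and 3098, so the labels separated the libraries without overlap. The keratocyte label was met in every library, since Kera, which encodes the stromal proteoglycan keratocan, stood at 3775 CPM or more in each of the 6. Libraries of both groups also held leukocyte RNA, with 27.7 to 57.3 CPM of Ptprc, the pan-leukocyte phosphatase, and 229 to 357 CPM of the macrophage receptor gene Csf1r. In bulk samples of this kind, fewer cells of a type and less RNA per cell cannot be told apart.

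NADPH oxidases move electrons from NADPH across a membrane onto oxygen and so make superoxide or hydrogen peroxide on purpose. The dual oxidases carry an additional peroxidase-like domain, release hydrogen peroxide at the apical surface of the thyroid and of airway and gut epithelia, and leave the endoplasmic reticulum only in complex with a maturation factor. The phagocyte enzyme consists of the catalytic subunit encoded by Cybb and the membrane partner encoded by Cyba, and is switched on by the cytosolic subunits such as those encoded by Ncf1 and Ncf4, together with a Rac GTPase. The product of Nox4 needs the Cyba subunit but no cytosolic subunit.

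The 4 dual oxidase genes lie side by side on chromosome 2, each oxidase head to head with a maturation factor. In the RefSeq annotation of GRCm38.p6 the start sites of Duoxa1 and Duox1 lay 1942 bases apart and those of Duox2 and Duoxa2 673 bases apart, and in each pair the genes ran away from each other. The upstream sequences of Duoxa1 and Duox1 are shown because these neighbours were the members with the largest differences between groups. Each sequence is the 250 bases before the start site, read 5′ to 3′ on the strand of its gene, and capitals mark a GC box, searched as GGGCGG on both strands with overlaps allowed.
Duoxa1, chr2:122313731-122313980, minus strand: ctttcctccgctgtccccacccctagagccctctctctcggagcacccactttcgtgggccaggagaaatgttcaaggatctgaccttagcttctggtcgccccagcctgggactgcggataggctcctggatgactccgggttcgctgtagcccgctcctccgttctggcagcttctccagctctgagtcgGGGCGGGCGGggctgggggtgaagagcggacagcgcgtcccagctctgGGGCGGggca
Duox1, chr2:122315422-122315671, plus strand: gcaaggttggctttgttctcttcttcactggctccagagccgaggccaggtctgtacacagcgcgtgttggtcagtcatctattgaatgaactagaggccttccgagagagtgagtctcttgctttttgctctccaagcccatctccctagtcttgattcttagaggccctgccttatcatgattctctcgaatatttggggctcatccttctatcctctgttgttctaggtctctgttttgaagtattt

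The 2 windows differed in composition although they flank the same interval. The Duoxa1 window was 65.6% G and C with 16 CpG and 3 GC boxes, of which the first pair overlapped. The Duox1 window was 47.6% G and C with 5 CpG and no GC box. Over 32851 RefSeq promoters the median was 6 CpG and 32.7% held a GC box. The letters TATAAA stood in neither window and in 12.4% of all promoters. CCACCCA, the core of the Gli binding motif, was likewise in neither window on either strand, against 8.11% of all promoters. Among the 8 members with a promoter in the table, only Cyba held that core. A match or its absence describes these letters in these windows and nothing more.

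Duoxa1, the maturation factor of the product of Duox1, was the member with the largest difference. It had 30.4, 20.5 and 17.6 CPM in the controls and 0.554, 0.0425 and 0.604 CPM in the Ptch1-ablated libraries. The groups were far apart, and the second ablated library held a single count. The means were 22.8 ± 6.75 and 0.400 ± 0.311 CPM (SD, n = 3 each), which is 57.0-fold lower after ablation, and the fitted log2 fold change was -5.81 ± 0.64 (SE).

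Duox1, the oxidase encoded next to it, was lower by a smaller factor. Its values were 33.5, 43.7 and 39.3 CPM in the controls and 5.41, 3.48 and 0.966 CPM after ablation. Again no ablated library reached the lowest control, but the ablated libraries spread over a wide range. The means were 38.8 ± 5.12 and 3.29 ± 2.23 CPM (SD, n = 3 each), 11.8-fold lower, with a log2 fold change of -3.56 ± 0.49 (SE). In TPM, a level corrected for transcript length, the level of Duox1 was 0.327, 0.611 and 0.670 times that of Duoxa1 in the controls and 2.76, 18.8 and 0.402 times that of Duoxa1 after ablation. The ratios after ablation rest on 13, 1 and 15 counts of Duoxa1, and the last also on a Duox1 value that depends on how reads were divided with Duox2, so no change in the ratio is read from them.

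Duox2, the paralog expressed in thyroid and gut, stayed low. It had 1.47, 3.05 and 1.93 CPM in the controls and 0.767, 0.0425 and 2.25 CPM after ablation, so the groups overlapped, and the log2 fold change was -1.07 ± 1.17 (SE). Its partner Duoxa2 was counted 0, 0 and 2 times in the controls and 9, 1 and 0 times after ablation. Both groups were near the floor of detection and no fold is given.

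The counts of Duox1 and Duox2 were not independent of each other. Of the 5218 stretches of 50 bases in the annotated Duox1 transcripts, 415 (7.95%) occurred unchanged in Duox2, where they made up 6.05% of all stretches. RSEM divides reads that match both genes, and although each value was fractional on its own, the sum of the genes was a whole number in each of the 6 libraries, to the last decimal given. These sums were 761, 888 and 942 counts in the controls and 145, 83 and 80 after ablation, far apart between groups. The share assigned to Duox2 was 4.18%, 6.49% and 4.66% in the controls and 12.5%, 1.22% and 69.6% after ablation. In the third ablated library most of the dual oxidase reads were thus placed on Duox2, while the sum was almost that of the second. Fitted as one gene, the pair had a log2 fold change of -3.25 ± 0.32 (SE), a setting chosen after seeing the data.

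**Figure D1:**
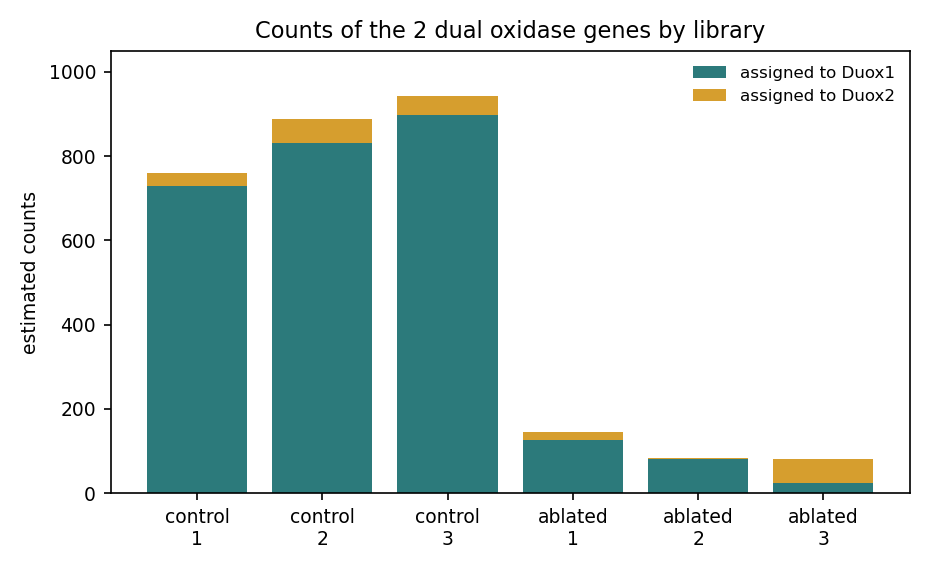
Estimated counts of Duox1 and Duox2 in each of the 6 libraries, as stacked bars. The sums lie between 761 and 942 counts in the controls and between 80 and 145 after Ptch1 ablation, and most of the bar belongs to Duox2 only in the third ablated library.

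Duoxa1 and Duoxa2 share sequence in another way. Their annotated 3′ ends overlap on opposite strands, so that 634 stretches of 50 bases (15.3% of Duoxa1 and 41.1% of Duoxa2) are each other's reverse complement. The sources used here do not say whether counting used the strand. If it did not, reads from this overlap cannot be assigned with certainty, and the few counts of Duoxa2 may not be its own. Unlike the values of Duox1 and Duox2, those of Duoxa1 and Duoxa2 were whole numbers in each library. No division of reads between them was therefore visible.

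The genes on either side of the cluster were compared to see how far the difference reached. In the order of the annotation the nearest listed genes were Terb2, Rps12-ps10 and Sord on the side of Duox2 and Shf, Slc28a2 and Slc28a2b on the side of Duox1. None of these 6 passed the rule of an edgeR adjusted p of at most 0.05 with a change of at least 2-fold. Shf, Slc28a2 and Slc28a2b had control means of at most 4.09 CPM and SEs of 0.92 to 1.44 on the log2 scale. Only a large change could have passed in them, so the missing calls set no boundary to the difference. Sord, which encodes sorbitol dehydrogenase, fell from 114 ± 7.52 to 66.7 ± 2.54 CPM (SD, n = 3 each), or -0.77 ± 0.15 (SE) as a log2 ratio, with an adjusted p of 0.00806 by edgeR which is less than 2-fold. Slc28a2, a concentrative nucleoside transporter, had an edgeR log2 fold change of -1.49 ± 0.92 (SE, adjusted p = 0.411), and Shf one of 0.73 ± 1.23 (SE, edgeR adjusted p = 0.812). Slc28a2 had 3.90, 3.16 and 5.21 CPM against 0.469, 3.44 and 0.443 CPM, so its groups overlapped through the second ablated library. Terb2 and Rps12-ps10 had at most 3 counts in any library and were not tested.

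**Figure D2:**
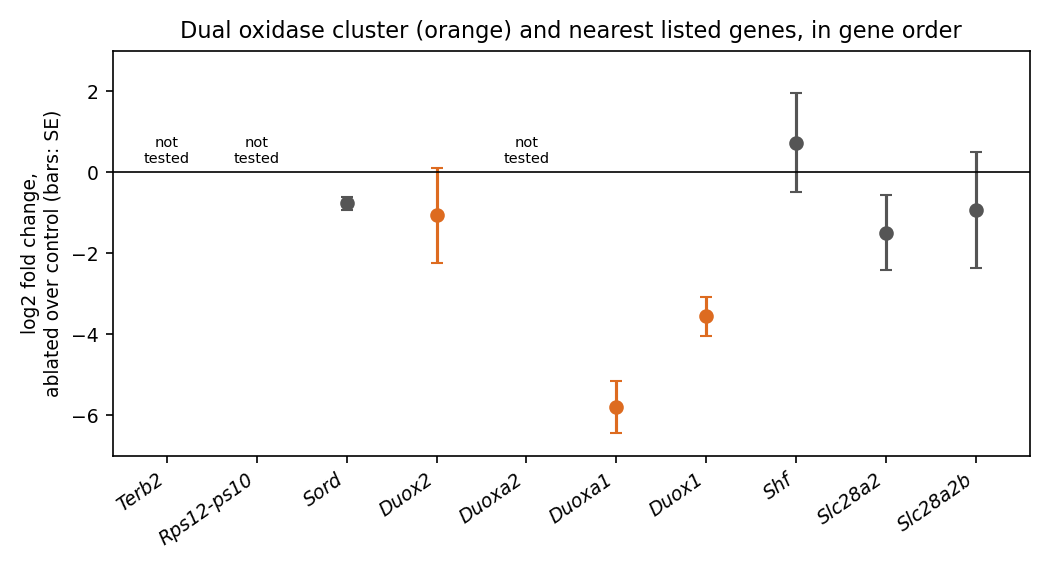
Log2 fold change (vertical axis, Ptch1-ablated over control, bars give the SE) of the tested dual oxidase cluster genes in orange and the tested genes among the 3 nearest listed on each side in grey, in gene order and not to genomic scale. Duoxa2, Terb2 and Rps12-ps10 are marked as not tested. Duoxa1 at -5.81 and Duox1 at -3.56 lie below all tested neighbours.

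Nox4, the oxidase that makes hydrogen peroxide without a cytosolic subunit and is known from kidney, fibroblasts and endothelium, had similar levels in 5 libraries. It had 13.2, 20.1 and 20.6 CPM in the controls and 14.2, 4.80 and 15.2 CPM after ablation. The second ablated library was the low one and the groups overlapped. The log2 fold change was -0.66 ± 0.42 (SE) and came to -0.29 without that library.

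Cyba, the membrane subunit shared by the phagocyte oxidase and the Nox4 enzyme, was the most abundant member by far. Its levels were 99.9, 98.4 and 74.4 CPM in the controls and 64.3, 79.8 and 69.4 CPM after ablation. The ranges met, because the third control lay below the second ablated library. The log2 fold change was -0.35 ± 0.18 (SE). The subunit made up 73.0% to 76.8% of the summed TPM of the 9 genes in the controls and 76.1% to 88.6% after ablation.

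Cybb, the catalytic subunit of the phagocyte oxidase, had 40.8, 45.9 and 46.0 CPM in the controls and 59.2, 44.6 and 61.5 CPM after ablation. In CPM the second ablated library fell within the control range, and the log2 fold change was 0.32 ± 0.20 (SE). In TPM the groups did not overlap, with 18.3, 20.9 and 21.8 TPM against 31.2, 25.1 and 31.5 TPM. TPM is not adjusted for the composition of a library as the scaled CPM are, and on the log2 TPM scale the median of all tested genes itself shifted by 0.19 or 0.22, depending on the pseudocount.

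Ncf1, the organizing cytosolic subunit, had 13.0, 14.3 and 13.5 CPM in the controls and 19.6, 5.23 and 17.6 CPM after ablation. The controls lay close together and the ablated libraries fell on both sides of them, which left a log2 fold change of 0.056 ± 0.43 (SE). Ncf4, which encodes a further cytosolic subunit, had 9.45, 13.9 and 8.32 CPM against 12.2, 5.95 and 10.6 CPM and a log2 fold change of -0.14 ± 0.39 (SE). The second ablated library was the lowest of all 6 in both genes. Without it the log2 fold changes were 0.46 for Ncf1 and 0.12 for Ncf4. Of the annotated Ncf1 stretches, 7.26% are the reverse complement of Gtf2ird2 sequence, so the same caution applies to its reads. Its counts were whole numbers in each library.

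**Figure D3:**
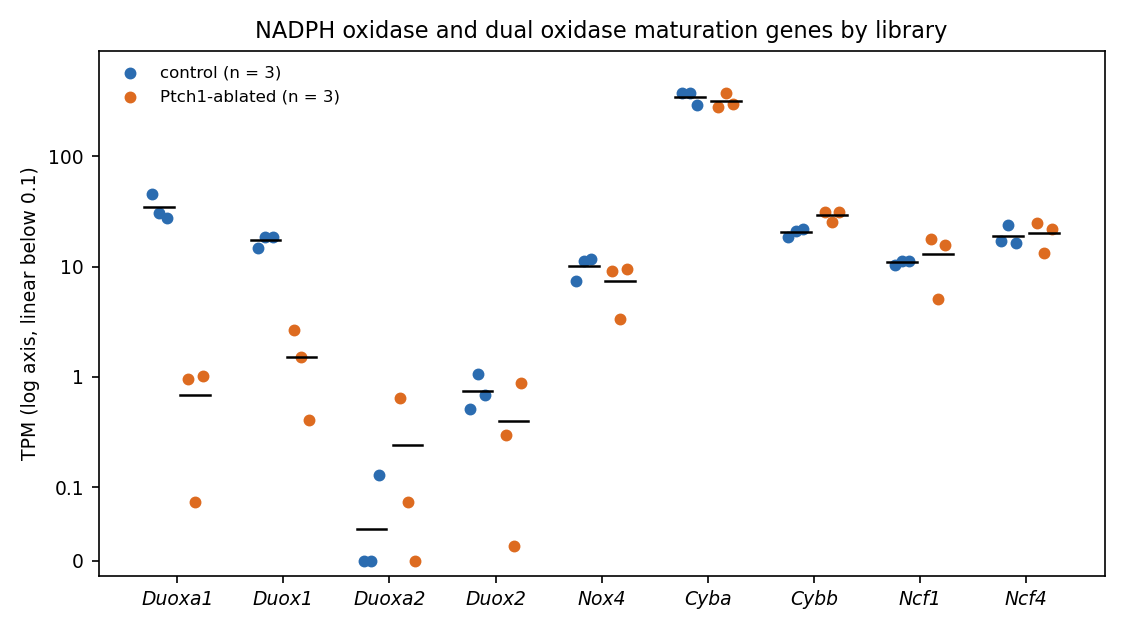
TPM of the 9 members in each library on a log axis that is linear below 0.1, with one point per library (blue control, orange Ptch1-ablated, n = 3 each) and a black line at the mean. Duoxa1 and Duox1 separate by more than their spread, Cyba is at 278 TPM or more in all libraries, and the phagocyte and Nox4 genes lie between 3.33 and 31.5 TPM.

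The order of the genes by mean TPM, a length-corrected level, differed between the groups only through Duoxa1 and Duox1. Both were picked with their change known. Cyba, Cybb, Ncf4, Ncf1 and Nox4 kept the same order of means. In the controls Cyba (345 ± 47.8 TPM) was followed by Duoxa1 (34.5 ± 9.60 TPM), Cybb (20.3 ± 1.79 TPM), Ncf4 (19.1 ± 4.15 TPM), Duox1 (17.3 ± 2.13 TPM), Ncf1 (10.9 ± 0.543 TPM) and Nox4 (10.1 ± 2.46 TPM, SD, n = 3 for each). The ranges of Cybb and Ncf4, of Ncf4 and Duox1, and of Ncf1 and Nox4 overlapped. In the ablated libraries Cyba (316 ± 52.3 TPM) was followed by Cybb (29.3 ± 3.59 TPM), Ncf4 (19.9 ± 6.05 TPM), Ncf1 (12.9 ± 6.83 TPM) and Nox4 (7.32 ± 3.46 TPM, SD, n = 3 for each). Duox1 (1.52 ± 1.12 TPM) and Duoxa1 (0.687 ± 0.526 TPM) came next, ahead of Duox2 and Duoxa2. After ablation the ranges of Ncf4 and Ncf1, of Ncf1 and Nox4, and of each neighbouring pair from Duox1 down to Duoxa2 overlapped, so the order among the 4 dual oxidase cluster genes was not resolved, but all 4 lay below the other 5 members.

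Over the whole table, 763 of the 13888 tested genes (5.49%) passed the call rule, 467 higher (3.36%) and 296 lower (2.13%) after ablation. Of the 8 tested members 2 were called, Duoxa1 and Duox1, both lower. The groups did not overlap in CPM in these same genes, against 27.4% of all tested genes. The median log2 fold change was -0.51 for the tested members and 0.0046 for all tested genes. Nothing is read from these counts, since the members were picked on this comparison.

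The remaining genes of the oxidase complexes were counted from a list of 14, of which 13 were in the table and 11 were tested. None of the 11 was called, and their median log2 fold change was -0.14. By edgeR 0 had an adjusted p of 0.05 or less and 1 an unadjusted p under 0.05, DESeq2 and limma called 0, and in 3 the groups did not overlap. The Rac GTPase genes were near 0 change, with log2 fold changes of -0.083 ± 0.21 for the ubiquitous Rac1, -0.15 ± 0.25 for the hematopoietic Rac2 and 0.016 ± 0.68 for Rac3. Cybc1, which encodes the chaperone of the Cybb and Cyba products, stood at -0.28 ± 0.24 (SE, edgeR adjusted p = 0.581).

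Noxo1, the organizer of the Nox1 oxidase, was the lowest of the list by fold change. It had 9.18, 6.84 and 8.45 CPM in the controls and 4.69, 1.32 and 5.60 CPM after ablation. The groups did not overlap, but the fit gave a log2 fold change of -1.08 ± 0.56 (SE) with an edgeR adjusted p of 0.315. Nox1 itself and its activator Noxa1 had at most 1 count in any library, and Nox3 was not in the expression table. The adaptor genes Sh3pxd2b and Sh3pxd2a, whose products localize oxidase activity at podosomes, had log2 fold changes of 0.83 ± 0.25 (edgeR adjusted p = 0.0608) and 0.73 ± 0.34 (edgeR adjusted p = 0.251). They are named after their values were seen, because both were called higher when the first control library was left out, which moved the count of the list from 0 to 2.

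**Figure D4:**
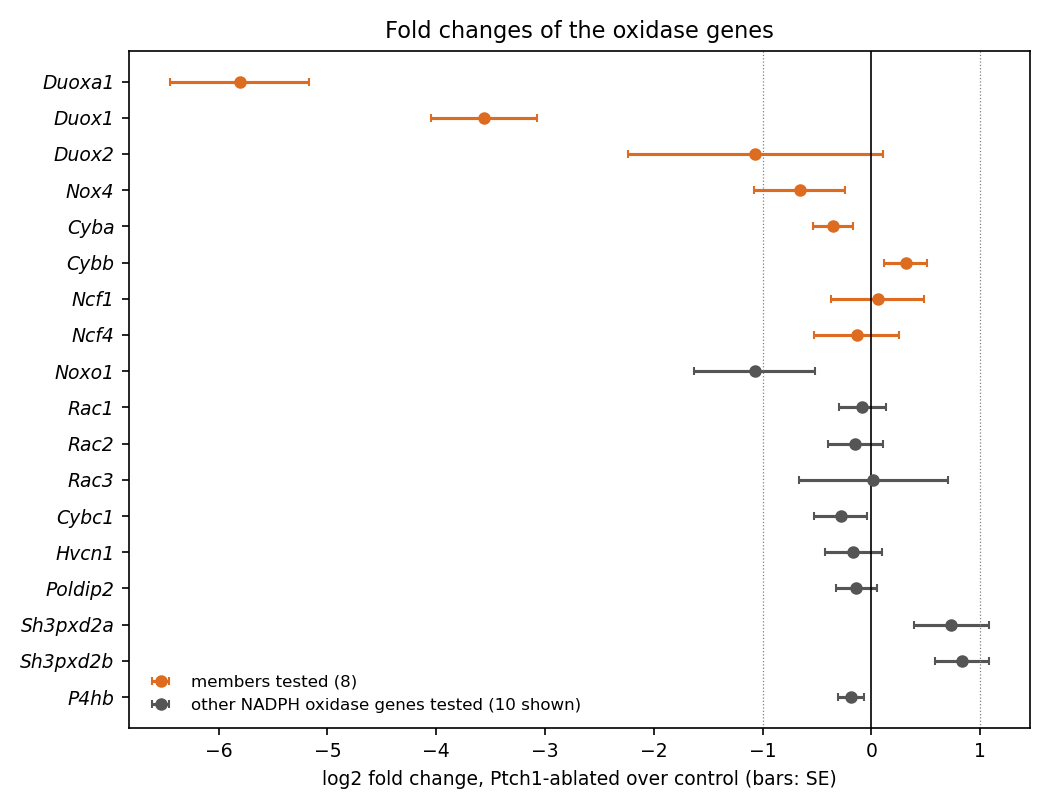
Log2 fold change (horizontal axis, Ptch1-ablated over control, bars give the SE) of the 8 tested members in orange and 10 other tested NADPH oxidase genes in grey, with dotted lines at a 2-fold change. Duoxa1 and Duox1 stand at -5.81 and -3.56, and the other genes lie between -1.08 and 0.83.

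Heme peroxidases and iodide handling genes were examined next, since dual oxidases supply hydrogen peroxide to a peroxidase in the thyroid. Of the 10 listed genes, which also include cyclooxygenases and a deiodinase, 8 were in the table, 5 were tested and 1 was called. Slc5a5, the sodium iodide symporter that feeds iodide to peroxidases in the thyroid, rose in all ablated libraries. It had 14.7, 14.7 and 19.8 CPM in the controls and 89.4, 58.2 and 65.5 CPM after ablation, or 2.11 ± 0.24 (SE) as a log2 ratio, with an adjusted p of 0.000126 by edgeR. The lactoperoxidase gene Lpo had at most 2 counts in any library. The change of Duox1 was known when it was picked, and 467 genes were called higher in the same comparison. The opposite directions of Slc5a5 and Duox1 therefore show no link between them. Lpo was near the floor in both groups. Pxdn, a heme peroxidase gene of the same list, was well counted in all libraries. It had 75.0, 92.8 and 100 CPM in the controls and 97.9, 82.3 and 77.5 CPM after ablation. Its log2 fold change was -0.056 ± 0.18 (SE, edgeR adjusted p = 0.913).

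Among 18 genes for the removal of superoxide and peroxide, all tested, 1 was called. Sod3, the extracellular superoxide dismutase, fell from 2024 ± 80.8 to 225 ± 30.3 CPM (SD, n = 3 each), or -3.17 ± 0.13 (SE) as a log2 ratio, with an adjusted p of 8.66e-08 by edgeR. Of the 18, 13 had a negative and 5 a positive log2 fold change, with a median of -0.20.

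Dual oxidases are known from epithelia, so markers of the corneal epithelium, which lies on the stroma, were set beside them. Of 16 markers 15 were in the table, 10 were tested, 4 were called lower and 1 was called higher. The list summed to 60.5, 69.9 and 80.6 CPM in the controls and to 12.4, 8.28 and 8.09 CPM after ablation, 7.33-fold lower on the mean. Krt14, a basal keratin, had 8.81, 8.26 and 10.2 CPM against 0.810, 0.0425 and 0 CPM (edgeR adjusted p = 0.0138). Krt5, its partner, had 3.81, 8.15 and 13.4 CPM against 0.725, 0 and 0 CPM (edgeR adjusted p = 0.0264). Krt15, a keratin of basal and limbal cells, was the most abundant of the list and fell from 35.5 ± 10.3 to 0.313 ± 0.541 CPM (SD, n = 3 each), with an edgeR adjusted p of 0.000496. The simple-epithelium keratin gene Krt19 fell as well, from 7.96 ± 5.24 to 0.315 ± 0.303 CPM (edgeR adjusted p = 0.0151). Single libraries bore on some of these calls. Krt5 was not called without the second or the third control or without the second or the third ablated library, nor by DESeq2, and Krt19 was not called without the first control or without the first ablated library.

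The marker of differentiated corneal epithelium went the other way. Krt12 was at 0 counts in all 3 controls and at 21, 49 and 52 counts after ablation, which was at least 10.7-fold higher when the controls are set at the floor of 3 counts per library (edgeR adjusted p = 0.0177). This call held only without the first control among the libraries left out 1 at a time. Relative to the summed epithelial markers, Duox1 came to 55.3%, 62.5% and 48.8% in the controls and to 43.7%, 42.1% and 11.9% after ablation. Duoxa1 came to 50.3%, 29.3% and 21.8% in the controls and to 4.47%, 0.513% and 7.46% after ablation. Duoxa1 thus stood lower against the epithelial sum in every ablated library than in any control. The sum did not keep its make-up, however. By their means Krt15, Krt5, Krt14 and Krt19 were 113-, 34.9-, 32.0- and 25.3-fold lower after ablation, against 57.0-fold for Duoxa1, while Krt12 was higher. Shares of this sum therefore do not show whether a gene fell by more than these keratins. The low share of Duox1 in the third ablated library goes with the placement of most reads of the pair on Duox2 there. For Duox1 and Duox2 together the shares were 57.7%, 66.9% and 51.1% in the controls and 49.9%, 42.6% and 39.8% after ablation, so the ranges came close without overlapping. The part of the epithelial markers in the result was not tested.

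The phagocyte oxidase genes were set beside 18 leukocyte markers, all tested. By edgeR none was called under the 2-fold rule, and 4 had an unadjusted p under 0.05. Of these Cd74, Itgam and Laptm5, named after their values were seen, rose by less than 2-fold at an adjusted p of 0.05 or less. The fourth, Tyrobp, was lower in each ablated library than in each control, with a log2 fold change of -0.79 ± 0.30 (SE) that missed the threshold (edgeR adjusted p = 0.143). DESeq2 called 0 and limma at most 1 of the list. The list summed to 3809, 3751 and 3431 CPM in the controls and 4539, 4406 and 4657 CPM after ablation, higher in each ablated library than in each control, and the median log2 fold change of its genes was -0.0081. Cybb came to 1.07%, 1.22% and 1.34% of this sum in the controls and 1.30%, 1.01% and 1.32% after ablation, so that the ranges overlapped. Ptprc, Cd68 and Csf1r, the defining markers, had log2 fold changes of 0.19 ± 0.27, -0.13 ± 0.25 and 0.23 ± 0.16 (SE). The low values of Ncf1 and Ncf4 in the second ablated library did not go with a low leukocyte sum. Their shares there were 0.119% and 0.135%, against 0.342% to 0.431% and 0.227% to 0.370% in the other 5 libraries. Cd74 alone made up 47.5% of the sum over the 6 libraries, so the sum need not follow phagocyte RNA. Single markers differed in that library, where C1qa (72.1 CPM) was at its lowest of all 6 and Itgam (69.0 CPM) at its highest. The part of the leukocyte markers in the result was not tested.

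**Figure D5:**
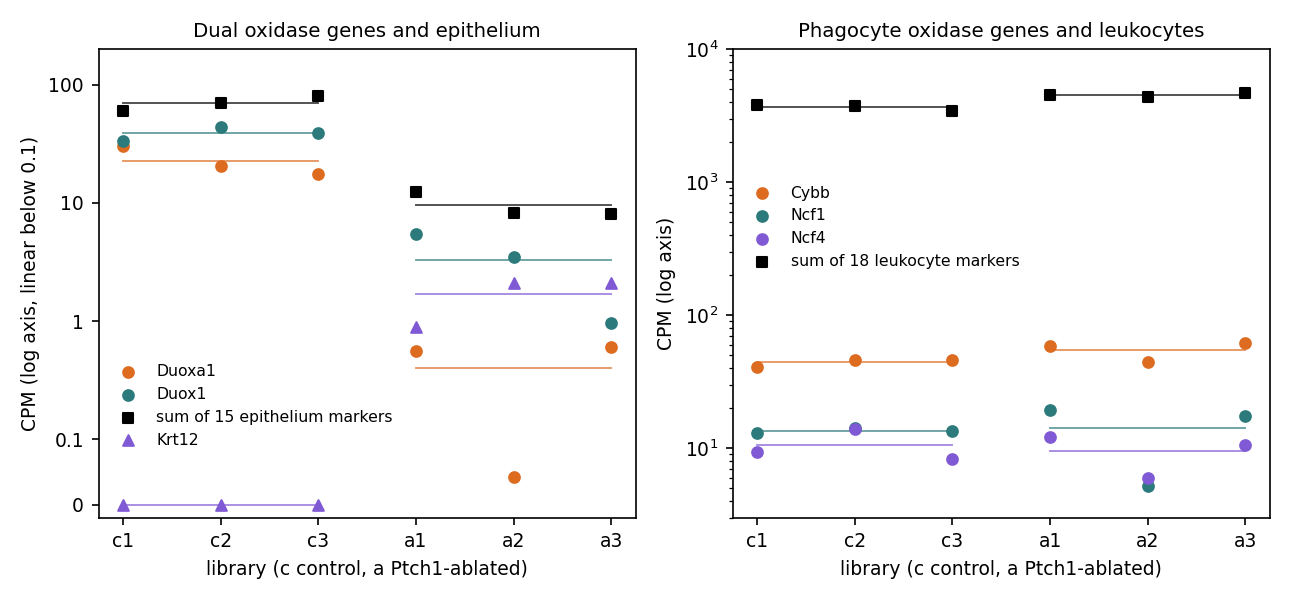
CPM by library (c1 to c3 control, a1 to a3 Ptch1-ablated, log axes, left panel linear below 0.1), with a horizontal line at each group's mean. On the left Duoxa1, Duox1 and the sum of 15 epithelial markers are all lower after ablation while Krt12 goes from 0 to between 0.895 and 2.09 CPM, and on the right Cybb, Ncf1 and Ncf4 are shown beside the sum of 18 leukocyte markers.

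The genes most like Duoxa1 and Duox1 were sought among the other 13887 tested genes by the root mean square difference of centred log2 CPM over the 6 libraries, a description without a test. Nearest to Duoxa1 were Adamts13, a protease that cleaves von Willebrand factor (0.662), the homeobox gene Irx6 (0.697), the keratin gene Krt19 (0.726), Klra7 (0.778) and Pm20d2 (0.780). Irx6 was the most abundant of them, with 53.9, 43.9 and 35.2 CPM against 3.92, 0.552 and 1.45 CPM, and like Duoxa1 it was highest in the first control and lowest in the second ablated library. Nearest to Duox1 were Dcc, a netrin receptor (0.380), the carboxypeptidase gene Cpa6 (0.421), Ankrd2 (0.581), Cyp17a1, a steroid hydroxylase (0.657), and Jchain (0.672). These 5 were low, with control means between 1.79 and 5.87 CPM. The neighbours on the chromosome were not each other's nearest genes by this measure, since Duox1 was the 68th gene from Duoxa1 and Duoxa1 the 668th from Duox1. These ranks and lists use the single count of Duoxa1 in the second ablated library and the Duox1 value of the third, in which most reads of the pair were placed on Duox2.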

How the data were processed

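RNA was measured in 6 samples of sorted keratocytes, grouped and numbered by their titles. Per the labels, libraries were made with a TruSeq kit, whereas the study's methods name ribosomal RNA depletion and a BGISEQ-500. The authors aligned reads with Bowtie2 2.2.5 (build mm9 in the submitters' processing notes) and estimated counts with RSEM 1.2.12. The deposited table gives expected counts (18.6% not whole), TPM and FPKM, of which FPKM was not used. Depth was similar between libraries, and the floor of 3 counts covers counting error only.

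Counts were rounded, filtered with filterByExpr, TMM-scaled and tested two-sided with edgeR 4.0.16 (quasi-likelihood, R 4.3.3), with Benjamini-Hochberg adjustment over 13888 genes. The call rule was that of the study's methods, a 2-fold or larger change with an adjusted p no higher than 0.05. For these data the study's results name a p cutoff without calling it adjusted, so its gene count need not rest on this rule. A test on simulated counts called 132 of 200 changed genes and 10 unchanged ones. The members and lists were chosen with earlier results of these data known. All members were named, along with the called genes of each list, fixed oxidase subunits and markers, the 3 nearest listed genes on each side of the cluster, and the 5 genes most like Duoxa1 and Duox1. Further genes of the lists were named after their values were seen. Alternatives were DESeq2 1.42.0, limma 3.58.1 on log2 TPM with a pseudocount of 1 or 0.1, other scalings and filters, a replicate block, and each library left out. No per-sample column was without a sample (0). Shared sequence was counted in GENCODE transcripts, gene order and promoters came from RefSeq (99.3% of genes matched), and these builds differ from that of the counts, so no coordinates were carried over. No pair of libraries was a duplicate. Some listed genes are not reported here.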

Additional observations from a re-analysis of the deposited data

How the results depend on the processing

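Duoxa1 and Duox1 were called under every alternative, with log2 fold changes of -6.23 to -4.42 and -4.13 to -2.96, and the smallest sizes came from limma on log2(TPM + 1), a scale that understates changes of low genes. No other member was called under any. Ncf1 changed sign with a replicate block (-0.13) and without the first ablated library or without the third (-0.24 to 0.46 over all libraries left out). Ncf4 changed sign with library totals only (0.024), with limma at a pseudocount of 1 or 0.1 (0.033 for both), and without the second control or second ablated library (-0.35 to 0.12). Duox2 ranged from -2.39 to -0.50 and Nox4 from -0.92 to -0.29 with 1 library left out. Without a fold minimum 1178 genes were called, with 2 removal genes and 3 leukocyte markers among them. Limma at a pseudocount of 0.1 called 1 leukocyte marker. The count of epithelium markers was 1 at an adjusted p of at most 0.01, 3 with a replicate block, and 3 to 4 with 1 library left out. Of the other oxidase genes 0 to 2 were called with 1 library left out. With library totals only, 633 genes were called higher and 234 lower, and the median of all genes shifted by 0.17. The replicate block called 663 genes and changed no call of a member. Whether the replicate numbers pair the samples was not known. Same-numbered samples did not deviate together (correlations of -0.0461, -0.0489 and 0.0388). Differently numbered samples gave correlations as small, from -0.0435 to 0.0656. No pairing was thus seen, but these correlations cannot exclude one. The cause of these changes was not tested. With 3 libraries a group and few counts of Duox2 and Duoxa2, differences in these 2 genes were not resolved at this depth.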

Other observations

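Markers of other cell types of the eye were measured in the sorted samples, and whether their RNA came from such cells or from keratocytes was not tested. Of 10 vascular endothelium markers, 4 were called higher after ablation (Tie1, Vwf, Cdh5 and Emcn), and the list summed to 858, 968 and 1063 CPM in the controls and 1231, 1205 and 1264 CPM after ablation. By log2 fold change 8 of the 10 were positive and 2, Kdr and Erg, were negative. Kdr made up 44.3% of the sum over the 6 libraries and went from 553 ± 87.3 to 420 ± 15.7 CPM (SD, n = 3 each, edgeR adjusted p = 0.112). Endothelium is among the cell types known to express Nox4, and the part of these markers in the Nox4 values was not tested. Of 6 corneal endothelium markers, Col8a1 was called higher and Alcam lower, with sums of 859, 903 and 779 CPM against 843, 608 and 515 CPM. Col8a2 alone made up 82.2% of these sums, so they mostly follow 1 gene. Slc4a11 had 0.918, 9.15 and 4.38 CPM in the controls and 21.8, 14.7 and 26.2 CPM after ablation. Its log2 fold change of 2.12 ± 0.61 (SE) just missed the call (edgeR adjusted p = 0.0541), and DESeq2 called it. Of 7 tested keratocyte markers, Kera, Aldh1a1, Tkt and Cd34 were called lower and the thrombomodulin gene Thbd higher, and Cd34 was not called without the second control, with library totals only or with limma at either pseudocount.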
